A study of Mus musculus with 40 samples.

Results

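The genes described here are the 10 core circadian clock genes Per1, Per2, Per3, Cry1, Cry2, Arntl (the gene of BMAL1), Clock, Nr1d1, Nr1d2 and Dbp. They were chosen by gene symbol from the 55401 genes of a kidney cortex RNA sequencing table, and each symbol matched 1 row. The table held 40 libraries, 1 per mouse, in 8 groups of 5. All mice were males of the C57BL/6J strain. WT mice were compared with their littermates heterozygous for Ins2-Akita, a mutated insulin gene that makes the mice diabetic. From 6 to 22 weeks of age, mice of both genotypes received daily by oral gavage the ethanol vehicle (10% ethanol in water) or MitoGamide, a dicarbonyl scavenger directed to mitochondria (10 mg/kg). Further WT and Akita mice received water or MitoQ, an antioxidant directed to mitochondria, whose dose is not given in the sources used here. The mice lived in a 12 h light and 12 h dark cycle. The hour of the day at which each kidney was taken is not given in the sources used here, so that a difference between groups in clock genes and a difference in the time of harvest cannot be told apart. In whole cortex, fewer cells of a type and less RNA per cell cannot be told apart either.

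The clock of mammalian cells is a loop of transcription and repression. BMAL1 and its partner CLOCK bind E-box motifs and switch on the Per and Cry genes, whose proteins gather and block BMAL1 and CLOCK until they are degraded. In a further loop, REV-ERB alpha and beta, the products of Nr1d1 and Nr1d2, repress Arntl through motifs called ROREs, and DBP acts on D-box motifs as an output of the clock. As a result Arntl peaks at the opposite time of day from Dbp and the Nr1d genes in peripheral organs such as the kidney, where the clock is known for its hold on the transport of sodium and water.

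Total counts ranged from 9106654 to 24321424 per library, with a median of 15638394.5. Genes of the mitochondrial genome took 14.3% to 49.2% of the counts, over 40% in 3 libraries (WT MitoQ replicate 3 and Akita water replicates 2 and 5), and the counts of called clock genes that rest on these libraries are also given without them. Genes of ribosomal proteins took 0.814% to 1.01% of the counts in WT mice on ethanol and 0.317% to 0.964% in WT mice on water. Proximal tubule markers (Slc34a1, Lrp2, Slc5a2 and Cubn) summed to between 6841 and 13656 CPM, in the manner of cortex. The sum of the inner medulla markers Slc14a2 and Aqp4 ranged from 1.08 to 51.6 CPM, that of the fat markers from 0 to 13.0 CPM and that of the muscle markers from 0 to 4.88 CPM. The liver markers Alb and Apoa2 reached 309.8 CPM in WT water replicate 1 and had a median of 8.19 CPM over all libraries.

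All 10 genes passed the filter on low counts (10 counts on average) in every comparison. Levels are given in CPM, the usual counts scaled to library size, here with TMM factors over the 40 libraries. Per kilobase of merged exons the mean level was highest for the repressor genes Nr1d2 (13.5 CPM per kb) and Nr1d1 (11.8 CPM per kb), followed by Dbp at 9.0 CPM per kb and Per1 at 6.35 CPM per kb. The lowest were Arntl at 1.37 CPM per kb and Cry1, whose product is a strong repressor of the loop, at 0.90 CPM per kb. Cry1 rested on only 9 to 131 counts per library. Across single mice Dbp spanned the widest range, from 1.79 to 69.9 CPM, a ratio of 39. Arntl spanned a ratio of 14.2, from 1.80 to 25.6 CPM, whereas Clock, whose product pairs with BMAL1 and is known for a flat rhythm, spanned 2.21 (44.7 to 98.7 CPM).

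For Per1, Per2, Cry1 and Cry2 the means of all 4 Akita groups lay above those of all 4 WT groups, both in CPM and on the log2 scale. For Dbp this held for the means in CPM only, since on the log2 scale Akita MitoQ lay below WT MitoGamide by 0.14. The Dbp means in CPM ran from 9.97 CPM (WT ethanol) to 21.5 CPM (WT MitoGamide) in WT mice and from 25.4 CPM (Akita MitoQ) to 52.9 CPM (Akita ethanol) in Akita mice. Cry2 ran from 10.2 to 13.5 CPM in WT groups and from 17.7 to 25.8 CPM in Akita groups. The Arntl means in CPM interleaved only at Akita MitoQ (10.4 CPM) and WT MitoGamide (9.89 CPM), with the other Akita groups between 4.04 and 7.31 CPM and the other WT groups between 14 and 16 CPM. On the log2 scale Akita MitoQ lay 0.21 below WT MitoGamide, so that all 4 Akita groups were under the WT groups. How common such an order is among all genes is not given here. These orders are thus not shown to set the clock genes apart. The order of the other clock genes mixed the genotypes. Clock was highest in WT MitoGamide (85.2 CPM) and lowest in Akita water (57.1 CPM), and Nr1d1 was highest in Akita ethanol (41.9 CPM) and lowest in Akita MitoQ (30.3 CPM). From the lowest to the highest group on the log2 scale the difference ran from 0.48 for Nr1d1 to 2.63 for Dbp. Of the 70 pairs of neighbours in the order of mean log2 levels 0 had p under 0.05 in an exact permutation test (two-sided, lowest p = 0.0873), so that no neighbouring groups were shown to differ beyond their spread. As the groups were ordered by these same values, neighbours are close by construction and their p-values say nothing on the range as a whole.

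**Figure D1:**
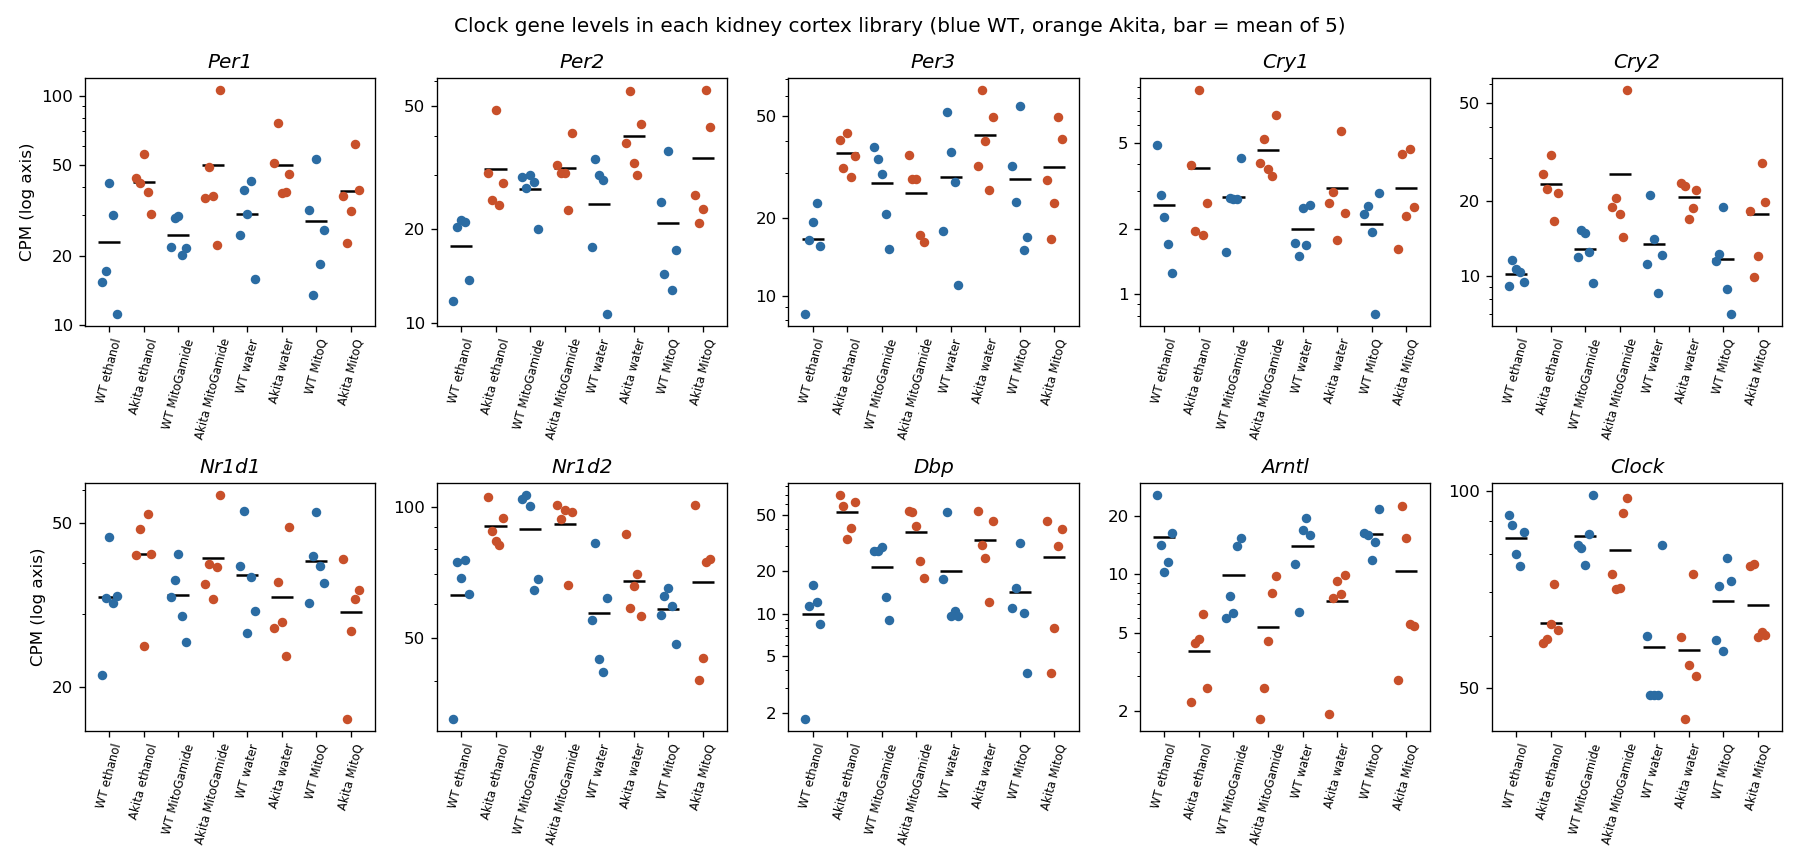
Level of each clock gene in every library, in CPM on a log axis, by group (blue points WT, orange points Akita, black bar the mean of 5 libraries). For Dbp the Akita ethanol libraries sit between 33.8 and 69.9 CPM, above all 5 WT ethanol libraries (1.79 to 16 CPM), and for Arntl they sit below them.

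The promoters are shown because the genes are read through a few short motifs, and the groups that vary together below can be set beside them. RefSeq windows on GRCm38.p6, from 250 bases before to 50 bases after a start site, were found for 9 of the 10 genes, with 13 windows in all. Both strands were searched for 5 motifs, and 6 windows held at least 1 of them. These were the E-box (CACGTG) and a variant of it that differs at the last base (CACGTT, found on the other strand in Cry1, Cry2 and Nr1d1), with no overlap between matches, the D-box bound by DBP (TTANGTAA), the cyclic AMP response element or CRE (TGACGTCA) and the RORE. Of 32851 mouse promoters of this length, 7.15% held the E-box, 4.68% the variant, 2.32% the D-box, 0.606% the RORE and 1.79% the CRE. A Per1 window (chr11:69098699-69098998, plus strand) held an E-box at position -166 from the start site, the Cry1 window (chr10:85185005-85185304, minus strand) held an E-box at -60 and a variant at -79, and the Per3 window (chr4:151044616-151044915, minus strand) held 2 D-boxes, at -205 and -158. An Arntl window (chr7:113207261-113207560, plus strand) held a RORE 28 bases after its start site. Variants of the E-box also stood at -166 in Cry2 and at -28 in Nr1d1, and the Dbp window (chr7:45704997-45705296, plus strand) held no match. The sequences run 5′ to 3′ on the strand of the gene, with the motifs in capitals, and Dbp is printed because its level varied most.
Per1: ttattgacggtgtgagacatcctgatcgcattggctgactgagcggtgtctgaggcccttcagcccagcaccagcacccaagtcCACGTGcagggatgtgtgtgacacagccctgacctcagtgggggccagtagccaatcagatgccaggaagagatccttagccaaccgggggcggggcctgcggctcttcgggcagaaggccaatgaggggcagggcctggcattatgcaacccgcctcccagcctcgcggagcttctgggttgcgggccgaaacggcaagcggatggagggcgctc
Cry1: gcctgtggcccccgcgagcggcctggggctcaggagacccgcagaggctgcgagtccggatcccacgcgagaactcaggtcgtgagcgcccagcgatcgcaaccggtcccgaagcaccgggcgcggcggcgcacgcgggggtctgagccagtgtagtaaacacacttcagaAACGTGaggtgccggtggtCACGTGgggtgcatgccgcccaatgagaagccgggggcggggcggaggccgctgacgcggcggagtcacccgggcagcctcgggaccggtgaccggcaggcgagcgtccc
Per3: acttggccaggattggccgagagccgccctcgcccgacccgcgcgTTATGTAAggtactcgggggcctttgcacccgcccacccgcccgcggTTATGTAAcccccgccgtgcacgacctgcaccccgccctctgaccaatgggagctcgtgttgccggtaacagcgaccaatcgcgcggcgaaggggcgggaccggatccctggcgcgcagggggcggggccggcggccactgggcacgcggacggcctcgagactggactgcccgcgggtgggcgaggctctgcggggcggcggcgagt
Arntl: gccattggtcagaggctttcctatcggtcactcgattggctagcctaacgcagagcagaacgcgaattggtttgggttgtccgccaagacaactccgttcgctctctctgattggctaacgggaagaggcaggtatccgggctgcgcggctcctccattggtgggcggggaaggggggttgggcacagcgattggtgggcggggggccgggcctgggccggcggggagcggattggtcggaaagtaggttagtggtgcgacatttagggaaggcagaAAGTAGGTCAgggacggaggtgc
Dbp: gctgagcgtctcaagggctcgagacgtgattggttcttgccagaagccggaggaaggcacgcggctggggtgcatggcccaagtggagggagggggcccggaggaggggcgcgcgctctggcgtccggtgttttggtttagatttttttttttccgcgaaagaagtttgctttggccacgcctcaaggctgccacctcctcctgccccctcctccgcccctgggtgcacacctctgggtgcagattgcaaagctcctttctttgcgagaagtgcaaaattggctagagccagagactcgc
A match is a description of letters and was not tested for binding. The Per1 gene lies at chr11:69095217-69109960, Arntl at chr7:113207465-113314126 and Dbp at chr7:45705088-45710203 (GRCm38). Exons of Dbp overlap 539 bases of Sphk2 on the opposite strand, those of Nr1d1 263 bases of Thra, those of Cry2 295 bases of D930015M05Rik and those of Arntl 33 bases of Gm45355. The library kit keeps strand, but whether the counting used it is not given in the sources used here, so reads in these stretches may be divided between the genes.

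Akita and WT mice were first compared on the ethanol vehicle, where 6 of the 10 clock genes differed between them. The output gene Dbp, the repressor gene Cry2 and the period genes Per3 and Per2 were higher in Akita mice, and both activator genes, Arntl and Clock, were lower. In this comparison 16.4% of 17747 genes were called at an adjusted p under 0.05, 8.18% higher and 8.22% lower. The median log2 fold change was 0.69 over the 10 genes and -0.0021 over all genes. For 7 of the 10 genes (these 6 and Nr1d2) the 5 Akita libraries did not overlap with the 5 WT libraries, against 12.7% of all genes.

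Dbp stood at 1.79, 11.5, 16, 12.1 and 8.50 CPM in WT replicates 1 to 5 and at 69.9, 58.3, 33.8, 40.4 and 61.9 CPM in the Akita replicates. The lowest Akita library was above the highest WT library. The log2 fold change was 2.40 ± 0.35 (SE, adjusted p = 0.000528). Arntl moved the opposite way, with 25.6, 14.1, 10.3, 11.6 and 16.4 CPM in WT mice and 2.21, 4.43, 4.66, 6.29 and 2.62 CPM in Akita mice. It fell by 1.92 ± 0.29 on the log2 scale (adjusted p = 0.000619). The WT library with the most Arntl, replicate 1, was also the one with the least Dbp, and the Akita library with the least Arntl, replicate 1, had the most Dbp. Clock fell by 0.42 ± 0.07 (adjusted p = 0.00129), from 91.9, 88.6, 80.02, 76.7 and 86.5 CPM in WT mice to 58.6, 59.3, 62.6, 72.1 and 61.3 CPM in Akita mice. Its change was small but every Akita library lay below every WT library.

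Among the genes of the repressor proteins, Cry2 measured 9.03, 11.5, 10.7, 10.4 and 9.37 CPM in WT mice and 25.8, 22.5, 30.8, 16.6 and 21.7 CPM in Akita mice, a log2 fold change of 1.21 ± 0.14 (adjusted p = 0.00011). Per3 measured 8.46, 16.5, 19.4, 22.9 and 15.6 CPM in WT mice and 40.5, 31.3, 43.1, 29.0 and 35.1 CPM in Akita mice (log2 fold change 1.12 ± 0.20, adjusted p = 0.00183). Both genes separated the genotypes without overlap. Per2 followed with 11.8, 20.4, 21.5, 21.2 and 13.7 CPM against 30.4, 24.9, 48.7, 24.1 and 28.3 CPM, a log2 fold change of 0.82 ± 0.21 (adjusted p = 0.0164). Akita replicate 3 was the highest for Per1, Per2, Per3, Cry1 and Cry2 alike.

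The other 4 genes did not pass the test. Per1, the period gene that also answers acutely to hormones and other signals, had a log2 fold change of 0.86 ± 0.29 (adjusted p = 0.0578). Its WT libraries reached from 11.1 to 41.6 CPM and overlapped with the Akita libraries (30.5 to 55.4 CPM). For Nr1d2, with 32.6 to 75.4 CPM in WT and 81.7 to 105.5 CPM in Akita mice, the log2 fold change was 0.54 ± 0.18 (adjusted p = 0.0515). Cry1 (0.56 ± 0.44, adjusted p = 0.427) and Nr1d1 (0.36 ± 0.19, adjusted p = 0.234) overlapped between genotypes. The Cry1 estimate rested on Akita ethanol replicate 3, which held 8.76 CPM against 1.87 to 3.95 CPM in the other 4 libraries. It was 0.05 without that library and 0.89 without WT ethanol replicate 1. Per1 passed the test without WT ethanol replicate 3 (1.2, adjusted p = 0.00559), and Nr1d2 passed it without WT ethanol replicate 1 (0.38, adjusted p = 0.0146), replicate 2 (0.61, adjusted p = 0.0451) or replicate 4 (0.61, adjusted p = 0.0479). The shares of all genes called in these fits are not given here. Nr1d2 also passed in DESeq2 (adjusted p = 0.0171), without a filter on low counts (adjusted p = 0.0248) and with at least 10 counts in every library (adjusted p = 0.0457), and Per1 passed without a filter (adjusted p = 0.0248). Fitted together with all 40 libraries, Dbp, Cry2 and Arntl kept their calls, and Per2 (adjusted p = 0.0999), Per3 (adjusted p = 0.0618) and Clock (adjusted p = 0.0563) lost them. In the 6 alternative fits the adjusted p of Per2 ranged from 0.00339 to 0.0999, that of Per3 from 5.07e-07 to 0.0618 and that of Clock from 2.46e-06 to 0.0563.

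Other measures moved with genotype in these mice. Mitochondrial transcripts took 20.1% to 22.6% of the counts in WT and 21.6% to 28.7% in Akita libraries. Among the markers of cortical cell types, the principal cell gene Aqp2 (log2 fold change 0.84 ± 0.12) and the podocyte gene Nphs1 (0.58 ± 0.10) were higher in Akita mice, and Lrp2 of the proximal tubule (-0.47 ± 0.10), Emcn of the endothelium (-0.40 ± 0.12) and the leukocyte gene Ptprc (-0.73 ± 0.11) were lower. Called in this comparison were 2 of 2 podocyte markers, both higher, but only 1 of 2 principal cell, 1 of 4 proximal tubule and 1 of 3 endothelial markers. The median of the proximal tubule list was -0.13. The summed level of the 2 principal cell markers ranged from 73.1 to 113.6 CPM in WT and from 106.7 to 159.7 CPM in Akita libraries. Podocyte markers summed to 35.8 to 54.0 CPM in WT and 54.9 to 86.3 CPM in Akita libraries, without overlap. The sums of the immune markers did not overlap either (15.3 to 23.8 CPM and 10.4 to 12.2 CPM). The part of these measures in the clock gene differences was not tested.

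On the other treatments the same comparison gave no calls in edgeR's test. With water, 0 of 10 genes passed edgeR's test, against 0.552% of all genes, and 0 passed DESeq2's, against 1.93%. An unadjusted p under 0.05 was found for 4 genes and for 7.56% of all genes. With MitoQ, 0 passed edgeR's test, against 0.557% of all genes, and 0 passed DESeq2's, against 2.29%. An unadjusted p under 0.05 was found for 1 gene and for 9.06% of all genes. With MitoGamide, 0 passed edgeR's test against 14.3% of all genes. There 4 had an unadjusted p under 0.05, near the 31.1% of all genes, and DESeq2 called 3 (Per1, Cry1 and Cry2, all higher), against 18.5% of all genes. Without the libraries over 40% mitochondrial counts the counts in edgeR were again 0 with water (0.0646% of all genes) and 0 with MitoQ (1.47%). There 1 and 4 genes had an unadjusted p under 0.05 (5.42% and 12.8% of all genes).

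The estimates nonetheless had the sign seen on ethanol for most genes. Arntl was lower in Akita mice in each group pair, by a log2 fold change of -0.95 ± 0.39 with water, -0.88 ± 0.43 with MitoGamide and -0.65 ± 0.45 with MitoQ. Dbp was higher by 0.73 ± 0.52, 0.86 ± 0.37 and 0.91 ± 0.63, and Cry2 by 0.63 ± 0.22, 1.03 ± 0.33 and 0.64 ± 0.30. None of these passed edgeR's test of the 2 groups with the filter on low counts and no block. With MitoGamide other fits changed the call, since Cry2 passed with DESeq2, without a filter (adjusted p = 0.0296) and with all 40 libraries in 1 fit (adjusted p = 0.0204), and the calls with a replicate block are given with the processing. The signs held in every alternative fit. Their size did not always hold. Without WT water replicate 2 the Dbp difference with water was 1.48, and without Akita water replicate 1 it was 0.48. With MitoQ the Arntl difference was -1.14 without Akita MitoQ replicate 2 and -0.41 without replicate 1, that of Dbp was 0.60 without replicate 1 and that of Cry2 was 0.41 without replicate 4. Without the libraries over 40% mitochondrial counts Arntl, Dbp and Cry2 differed by -1.11, 0.60 and 0.57 with water and by -0.74, 1.35 and 0.84 with MitoQ. Clock differed least, with -0.02 ± 0.20, -0.04 ± 0.11 and -0.02 ± 0.14, and the sign of these values changed in some of the alternative fits. Nr1d1 pointed up with MitoGamide (0.33 ± 0.16) and down with water (-0.19 ± 0.22) and MitoQ (-0.39 ± 0.21). Per3, called on ethanol, differed by -0.09 ± 0.26 with MitoGamide, where its sign changed between alternatives (-0.25 to 0.05). With water it differed by 0.55 ± 0.37 (0.20 to 0.86 over the alternatives). With MitoQ it differed by 0.20 ± 0.36, and there too its sign changed between alternatives (-0.02 to 0.54). Nr1d1 was 0.18 with MitoGamide without Akita MitoGamide replicate 5, -0.03 with water without WT water replicate 2, -0.47 with water without the libraries over 40% mitochondrial counts, and -0.24 with MitoQ without Akita MitoQ replicate 2.

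Single mice show where the groups overlapped. With MitoQ, Akita replicates 2 and 3 had 22.5 and 15.4 CPM of Arntl, the first above and the second inside the WT MitoQ range of 11.9 to 21.6 CPM, while Akita replicates 1, 4 and 5 had 2.85, 5.58 and 5.41 CPM. The same replicates 2 and 3 had the lowest Dbp of their group, 3.80 and 7.94 CPM, against 45.1, 30.4 and 39.7 CPM in the others. With water, WT replicate 2 had 53.0 CPM of Dbp and 6.40 CPM of Arntl, values within the Akita water range (12.2 to 53.3 CPM and 1.92 to 9.90 CPM). With MitoGamide, WT replicates 1, 2 and 3 had 5.99, 7.77 and 6.30 CPM of Arntl, against 14 and 15.4 CPM in replicates 4 and 5. In each case the mice high in Arntl were low in Dbp.

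In the MitoGamide comparison 4 single libraries decided calls. Without Akita MitoGamide replicate 5, which held 106.2 CPM of Per1 and 56.9 CPM of Cry2, the log2 fold changes of Per1 (0.59 ± 0.19, adjusted p = 0.047), Cry2 (0.54 ± 0.14, adjusted p = 0.0261) and Dbp (1.05 ± 0.32, adjusted p = 0.0446) passed the test. Per1 also passed without Akita MitoGamide replicate 1 (1.14, adjusted p = 0.0472) and replicate 4 (1.23, adjusted p = 0.0217). Cry2 passed without Akita MitoGamide replicate 4 (1.18, adjusted p = 0.0381), and Cry1 without WT MitoGamide replicate 5 (0.95, adjusted p = 0.0264). The shares of all genes called in these fits are not given here, so that these calls cannot be set against them. With all 5 Akita libraries the adjusted p was 0.0507 for Per1, 0.0532 for Cry2 and 0.0738 for Cry1. The share of mitochondrial counts did not overlap between these groups (24.6% to 27.8% in WT and 28.0% to 35.4% in Akita libraries), and the summed level of the principal cell markers did not either (55.3 to 84.9 CPM and 97.7 to 188.8 CPM). Of the 6 immediate early genes tested 3 were called higher in Akita mice, Egr1 (0.95 ± 0.21), Nr4a1 (1.95 ± 0.50) and Ier2 (0.70 ± 0.19), where 14.3% of all genes were called in either direction. The median of the list was 0.84. Its summed level ranged from 35.2 to 57.3 CPM in WT and from 39.7 to 122.0 CPM in Akita libraries. The upper end was Akita replicate 5, and the other 4 Akita libraries held 39.7 to 48.5 CPM, inside the WT range. The part of these measures in the clock gene differences was not tested.

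**Figure D2:**
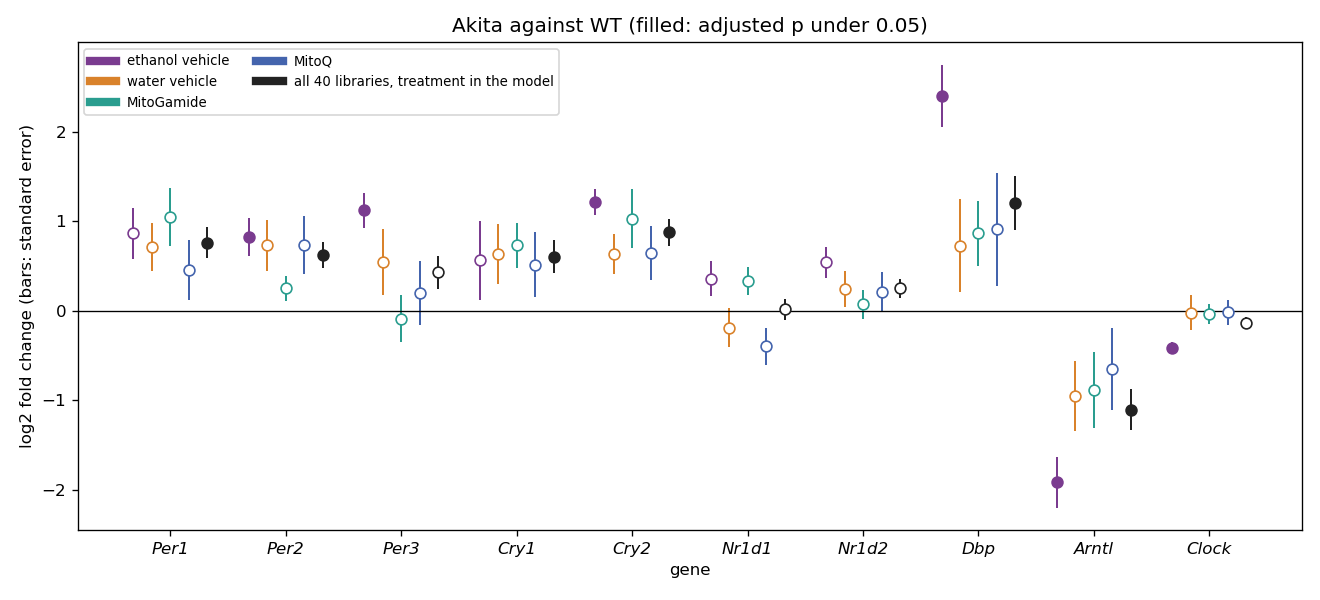
Log2 fold change of each clock gene between Akita and WT mice, with bars for the standard error, on each treatment and over all 40 libraries (filled points have an adjusted p under 0.05). Arntl lies below 0 and Per1, Per2, Cry1, Cry2 and Dbp lie above 0 in all 5 comparisons, and filled points occur on ethanol and over all libraries only.

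With all 40 libraries and the treatment in the model, 6 of the 10 genes differed between Akita and WT mice, against 22.8% of 17769 genes. Those higher in Akita mice were Dbp (1.2 ± 0.30, adjusted p = 0.00216), Cry2 (0.87 ± 0.15, adjusted p = 1.33e-05), Per1 (0.76 ± 0.17, adjusted p = 0.000994), Per2 (0.62 ± 0.14, adjusted p = 0.00095) and Cry1 (0.61 ± 0.19, adjusted p = 0.0154), where 11% of all genes were called higher. Arntl was lower (-1.11 ± 0.23, adjusted p = 0.000341), where 11.8% were called lower. These 6 calls stood in all 40 fits that left out 1 library and in every alternative fit that tested the gene. This comparison includes the ethanol mice above and is not independent of them. Cell type markers moved with it as well. Both principal cell markers, Aqp2 (0.98 ± 0.13) and Aqp3 (0.33 ± 0.08), were higher in Akita mice, and their summed level ran from 55.3 to 134.4 CPM in WT and from 97.7 to 200.7 CPM in Akita libraries. Of the podocyte markers 2 of 2 were higher, among them Nphs1 (0.47 ± 0.11). By contrast, 2 of 4 proximal tubule markers, Slc34a1 (-0.29 ± 0.07) and Lrp2 (-0.38 ± 0.11), and 1 of 2 thick ascending limb markers, Umod (-0.50 ± 0.11), were lower, as was Ptprc (-0.56 ± 0.07). Of the endothelial markers Pecam1 was higher (0.27 ± 0.08) and Emcn lower (-0.22 ± 0.08). Without the 3 libraries over 40% mitochondrial counts Emcn was not called (-0.17 ± 0.09, adjusted p = 0.149), and Cubn of the proximal tubule was called higher (0.30 ± 0.11, adjusted p = 0.0489). Their part in these values was not tested.

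Per3 (0.43 ± 0.19, adjusted p = 0.091), Nr1d2 (0.25 ± 0.11, adjusted p = 0.0801), Clock (-0.14 ± 0.07, adjusted p = 0.176) and Nr1d1 (0.02 ± 0.12, adjusted p = 0.949) did not pass. Per3 passed without any of 6 libraries (WT water replicate 2, WT MitoGamide replicate 1, WT MitoQ replicate 3, Akita MitoGamide replicates 4 and 5 and Akita MitoQ replicate 2), with log2 fold changes of 0.49 to 0.54. Nr1d2 passed without any of 9 (WT water replicate 2, WT MitoGamide replicates 1, 2 and 3, WT MitoQ replicate 3, Akita water replicate 2, Akita MitoGamide replicate 4 and Akita MitoQ replicates 2 and 3), with log2 fold changes of 0.28 to 0.30. Without the 3 libraries over 40% mitochondrial counts 7 genes were called, Nr1d2 added (0.32 ± 0.11, adjusted p = 0.0263), against 25.4% of all genes. The sign of Nr1d1 changed among the alternatives.

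Whether Akita and WT mice differed more on ethanol than on water, or less, was tested as a difference of differences. Of the clock genes 0 passed edgeR's or DESeq2's test, as did 0% of all genes in edgeR and 0.0111% in DESeq2. An unadjusted p under 0.05 was found for 2 clock genes, against 4.25% of all genes. These were Dbp, whose log2 fold change was larger on ethanol by 1.69 ± 0.70, and Cry2, larger by 0.59 ± 0.27 (both adjusted p = 1). Without WT water replicate 2 these values were 0.94 for Dbp and 0.37 for Cry2. Without the libraries over 40% mitochondrial counts 0 passed and 4 had an unadjusted p under 0.05 (6.03% of all genes), namely Dbp (1.83), Cry2 (0.66), Nr1d1 (0.84) and Clock (-0.53), with adjusted p between 0.787 and 0.813. The calls on ethanol and their absence on water are thus not shown to differ.

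The variation from mouse to mouse within groups was compared between clock genes. After subtraction of each group's mean, 26 of the 45 pairs of clock genes were correlated over the 40 libraries (permutation within groups, two-sided, adjusted over the 45 pairs), 17 positively and 9 negatively. The points share library depth and scaling, and many other genes varied together too. The 26 pairs had r of 0.40 or more in size, which makes 57.8% of the 45 pairs, and 33% of all pairs among 17769 genes and 39.9% among the 12164 genes that averaged 50 counts or more reached that size. With CPM by library total the smallest called r was 0.36 in size, which 55.6% of the clock gene pairs reached. That share was above the 42.9% of all pairs among the 17769 genes but below the 61.1% among the 12164 genes. With that scaling the clock genes are thus not shown to stand apart as a set. At 0.80 or more in size, a limit chosen after the values were seen, there were 6 clock gene pairs (13.3%, against 4.13% of all pairs among the 12164 genes), but 2 with CPM by library total (4.44% against 12.5%). Arntl ran against Dbp (r = -0.81, permutation p = 1e-05, the smallest that 100000 permutations can give, adjusted p = 6.43e-05; rho = -0.84, permutation p = 1e-05). Without the 2 libraries farthest from the median of Arntl, r was -0.80. Arntl also ran against Nr1d2, whose product represses it (r = -0.80, permutation p = 1e-05, adjusted p = 6.43e-05; rho = -0.82, permutation p = 1e-05; r = -0.78 without 2 libraries). Nr1d2 and Dbp rose together (r = 0.81, permutation p = 1e-05, adjusted p = 6.43e-05; rho = 0.77, permutation p = 2e-05; r = 0.74 without 2 libraries). The gap between Arntl and Dbp on the log2 CPM scale ran from -4.90 to 3.75 over the 40 mice, and in Akita MitoQ mice alone from -3.92 to 2.53.

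Another set held the period genes. Per2 rose with Per3 (r = 0.84, permutation p = 1e-05, adjusted p = 6.43e-05; rho = 0.82, permutation p = 1e-05; r = 0.79 without 2 libraries) and with Per1 (r = 0.80, permutation p = 1e-05, adjusted p = 6.43e-05; rho = 0.81, permutation p = 1e-05; r = 0.79 without 2 libraries). Clock ran against Per3 (r = -0.84, permutation p = 1e-05, adjusted p = 6.43e-05; rho = -0.81, permutation p = 1e-05; r = -0.80 without 2 libraries). It also ran against Per2 (r = -0.70, permutation p = 2e-05, adjusted p = 0.0001; rho = -0.69, permutation p = 5e-05; r = -0.61 without 2 libraries). With CPM by library total in place of TMM scaling, 19 pairs were called, and r fell in size to -0.54 for Clock and Per3 (permutation p = 3e-05, adjusted p = 0.00027) and to -0.43 for Clock and Per2 (permutation p = 0.00443, adjusted p = 0.0133), while Arntl and Dbp stood at -0.82 and Arntl and Nr1d2 at -0.57. Cry1, known to peak later than the other repressors, stood apart from them, with r = -0.50 to Nr1d1 (permutation p = 0.00447, adjusted p = 0.0107; rho = -0.41, permutation p = 0.0167; r = -0.46 without 2 libraries). With Per2 its r was 0.15 (permutation p = 0.391, adjusted p = 0.4).

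The pairs were also computed within each arm of 20 libraries. The Arntl and Dbp pair gave r = -0.82 with ethanol or MitoGamide and r = -0.81 with water or MitoQ. Per2 and Clock gave -0.84 in the water arm but only -0.31 in the ethanol arm, where the pair was not called (adjusted p = 0.302), and the difference between the arms was not tested. The share of counts on ribosomal protein genes spread more in the water arm. It ran from 0.162% to 0.817% in WT MitoQ and from 0.773% to 0.939% in WT MitoGamide libraries. In WT water, Akita water and WT MitoQ mice the library with the smallest share had the least Clock (48.8, 44.7 and 56.9 CPM). In Akita MitoQ mice it had the most Clock (77.2 CPM). Without the 3 libraries over 40% mitochondrial counts, Arntl and Dbp gave r = -0.87 and Per3 and Clock gave r = -0.81 over 37 libraries. The share of mitochondrial counts had r = 0.51 with Per2 and r = 0.47 with Per3 within groups (adjusted p = 0.073 for both, 10 genes tested by permutation; raw permutation p = 0.0138 and p = 0.0219; rho = 0.48 and 0.42; r = 0.42 and 0.36 without 2 libraries). With Cry2 it had r = 0.41 (adjusted p = 0.073, raw permutation p = 0.0192) and with Per1 r = 0.37 (adjusted p = 0.0836, raw permutation p = 0.0335). Clock ran the other way with it (r = -0.36, adjusted p = 0.198, raw permutation p = 0.111). The parts of the mitochondrial and ribosomal protein shares in the pairs of clock genes were not tested.

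**Figure D3:**
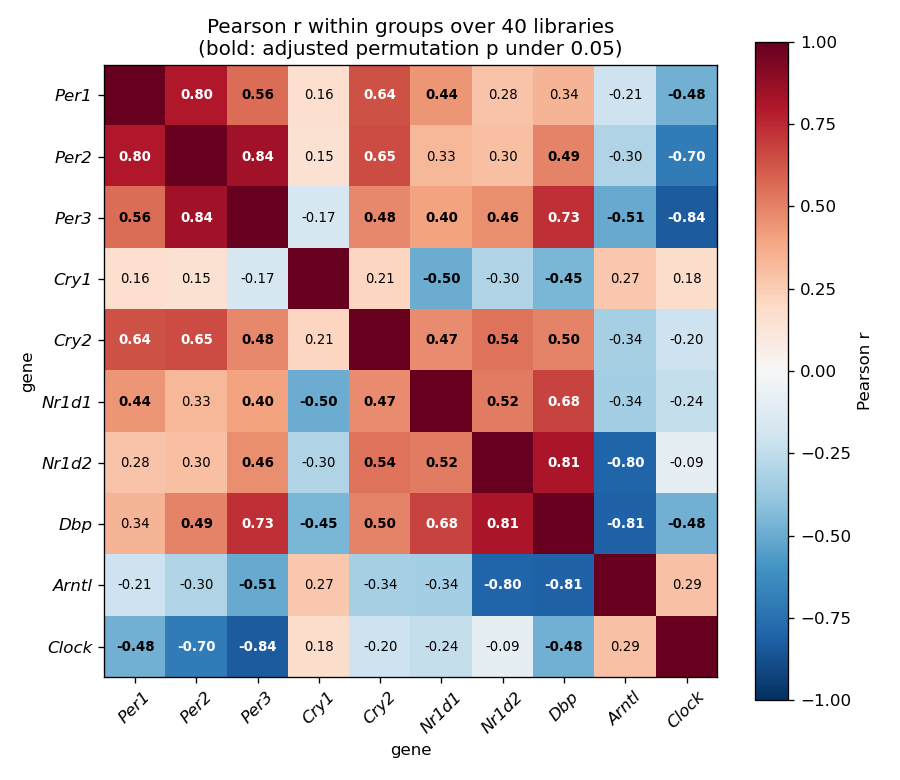
Pearson r between clock genes within groups over 40 libraries, from blue (negative) to red (positive), with bold figures where the adjusted permutation p was under 0.05. Arntl shows r = -0.81 with Dbp and -0.80 with Nr1d2, and Clock shows -0.84 with Per3.

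**Figure D4:**
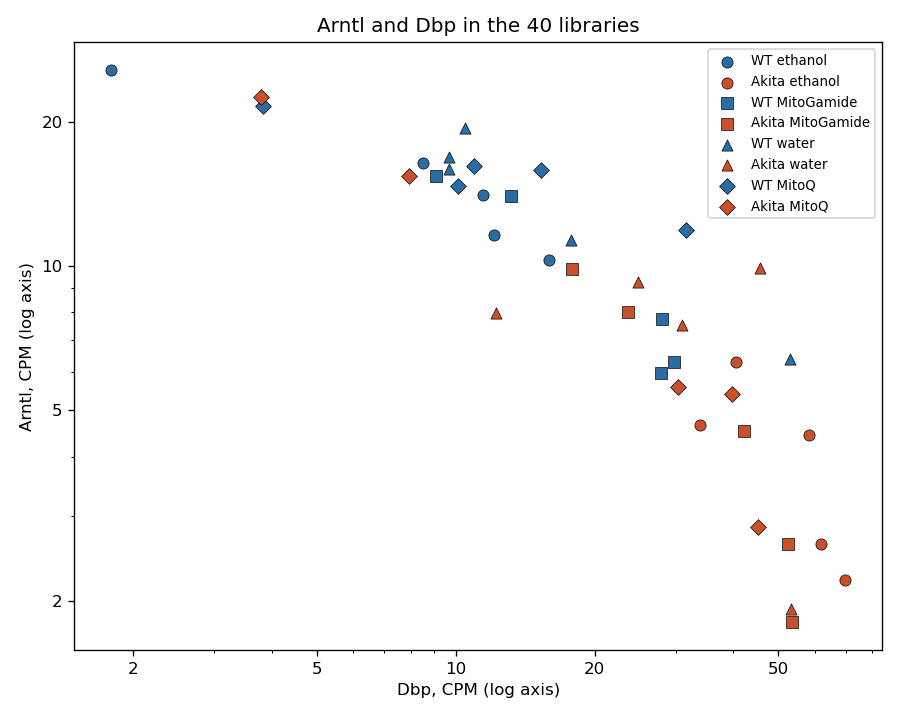
Level of Arntl against that of Dbp in each of the 40 libraries, both in CPM on log axes (blue WT, orange Akita, the marker shape gives the treatment). The mice lie along a falling band from 25.6 CPM of Arntl with 1.79 CPM of Dbp (a WT ethanol mouse) to 1.80 CPM of Arntl with 53.4 CPM of Dbp (an Akita MitoGamide mouse).

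The genes most like Arntl within groups, among 12164 genes that averaged 50 counts or more, were Npas2 (r = 0.92), Ppard (0.72), Aff1 (0.70), Dcdc2a (0.70) and Cluh (0.68). Npas2 is the paralogue of Clock and can stand in for it as the partner of BMAL1. The clock genes described here were left out of this ranking, and among them Nr1d2 (r = 0.81), Per3 (0.73) and Nr1d1 (0.68) would stand among the first 5 for Dbp. The other genes most like Dbp were Tef (r = 0.85), Tmem106a (0.70), Cpeb3 (0.66), Grap (0.64) and Slc35f3 (0.63). TEF belongs with DBP to the PAR bZIP factors, which bind the D-box. These are descriptions over 40 libraries that share depth and scaling.

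Further genes of the clock loop were also compared. Of 14 such genes, 7 were higher and 2 lower in Akita mice on ethanol, where 8.18% of all genes were called higher and 8.22% lower, and 5 did not pass the test. They had a median log2 fold change of 0.50 against -0.0021 over all genes. Ciart, a repressor of BMAL1 and CLOCK, was higher by 2.59 ± 0.33 (adjusted p = 0.000213), with 0.628 to 1.64 CPM in WT and 3.39 to 10.2 CPM in Akita libraries. Bhlhe41 (DEC2), a repressor at the E-box, was higher by 1.74 ± 0.22 (adjusted p = 0.000227). Npas2 fell by 2.51 ± 0.34 on the log2 scale (adjusted p = 0.000344), from between 7.73 and 26.3 CPM in WT to between 1.41 and 3.10 CPM in Akita libraries. None of these 3 genes overlapped between the genotypes. The PAR bZIP factors Tef (0.75 ± 0.12, adjusted p = 0.000811) and Hlf (0.55 ± 0.09, adjusted p = 0.00144) were higher together with Dbp, as was Nampt (0.55 ± 0.09, adjusted p = 0.00136), which supplies NAD.

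Over all 40 libraries 8 of these 14 genes were higher in Akita mice and 1 was lower, against 11% and 11.8% of all genes, and the counts were again 8 and 1 without the 3 libraries over 40% mitochondrial counts. Ciart (1.70 ± 0.24, adjusted p = 7.32e-07) and Bhlhe41 (1.55 ± 0.17, adjusted p = 4.06e-09) again led those higher, and Npas2 (-1.55 ± 0.24, adjusted p = 3.5e-06) was the one lower. Bhlhe41 was also called with water (1.55 ± 0.30, adjusted p = 0.0497, but 0.182 without the libraries over 40% mitochondrial counts) and with MitoGamide (1.71 ± 0.29, adjusted p = 0.00382). With MitoQ 0 of the 14 genes were called. Of 12 genes listed with casein kinases and other modifiers of clock proteins, 1 was higher on ethanol (Tipin, 0.68 ± 0.16, adjusted p = 0.0115), a share near the 8.18% of all genes called higher. Over all libraries 2 of the 12 were higher and 1 lower.

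Genes known to follow the clock in the kidney or to lie under PAR bZIP factors were counted as well. On ethanol 3 of 9 were higher in Akita mice, namely Scnn1a (0.62 ± 0.11, adjusted p = 0.00178), a subunit of the epithelial sodium channel, Aqp2 (0.84 ± 0.12, adjusted p = 0.000501), the water channel of the collecting duct, and the receptor gene Nr1i3 (1.35 ± 0.35, adjusted p = 0.0175), and 0 were lower. Of all genes 8.18% were called higher there. Aqp2 is also one of the principal cell markers whose summed level was given above as higher in Akita mice, and the part of that cell type in its value was not tested. The temperature-linked RNA-binding protein genes Cirbp (1.14 ± 0.16, adjusted p = 0.000437) and Rbm3 (0.74 ± 0.10, adjusted p = 0.000422) were higher too. Their summed level was 38.0 to 42.2 CPM in WT and 58.6 to 88.5 CPM in Akita libraries. Of 5 genes that respond to glucocorticoids 0 were called on ethanol, and over all libraries 3 were higher, against 11% of all genes, among them Sgk1 (1.11 ± 0.13, adjusted p = 1.9e-08). Without the 3 libraries over 40% mitochondrial counts 4 of the 5 were higher. The part of temperature or hormone signals in the clock gene levels was not tested.

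MitoGamide was compared with its vehicle in both genotypes. In Akita mice 0 of 10 clock genes passed edgeR's test, against 1.26% of all genes, and 2 had an unadjusted p under 0.05, a share near the 20.9% of all genes. These were Clock and Per3. Clock was 58.6 to 72.1 CPM on vehicle and 70.9 to 97.7 CPM on MitoGamide (0.38 ± 0.10, adjusted p = 0.0812), and Per3 was 29.0 to 43.1 CPM and 16.2 to 35.2 CPM (-0.50 ± 0.20, adjusted p = 0.191). DESeq2 called 1 gene, Clock (adjusted p = 0.0241), against 6.27% of all genes, where the alternatives ranged from 0.0241 to 0.224. Dbp differed by -0.47 ± 0.30 and Arntl by 0.40 ± 0.43, neither past the test, and over the alternatives they ranged from -0.62 to -0.28 and from 0.09 to 0.61. The values nearest to 0 were those without Akita MitoGamide replicate 5. The summed level of the 3 endothelial markers did not overlap between the vehicle (147.3 to 188.2 CPM) and MitoGamide (198.1 to 290.7 CPM), although 0 of the 3 passed the test, and mitochondrial counts took 21.6% to 28.7% and 28.0% to 35.4%. Their part in these clock gene values was not tested. The Akita vehicle mice also serve in the comparison with WT mice above, so that both share these 5 libraries.

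In WT mice MitoGamide gave 0 calls among the clock genes with edgeR and with DESeq2, against 0% of all genes in edgeR and 0.425% in DESeq2. An unadjusted p under 0.05 was found for 5 clock genes and for 10.6% of all genes. These were Per2 (0.60 ± 0.17), Per3 (0.71 ± 0.26), Cry2 (0.31 ± 0.13), Nr1d2 (0.49 ± 0.21) and Dbp (1.07 ± 0.42), with adjusted p between 0.31 and 0.438. Mitochondrial counts took 20.1% to 22.6% on vehicle and 24.6% to 27.8% on MitoGamide, without overlap, and the principal cell markers summed to 73.1 to 113.6 CPM and 55.3 to 84.9 CPM, with 0 of 2 past the test. Their part in these clock gene values was not tested. Dbp was 27.8, 28.0, 29.7, 13.2 and 9.06 CPM in the 5 treated mice, so that replicates 1 to 3 lay above and the other two within the vehicle range. The difference of the MitoGamide effect between Akita and WT mice gave 0 calls in edgeR and in DESeq2 (0% of all genes in edgeR), with 4 genes at an unadjusted p under 0.05 (8.32% of all genes). For Per3 it was -1.22 ± 0.36, for Dbp -1.54 ± 0.56, for Per2 -0.59 ± 0.28 and for Clock 0.37 ± 0.13, with adjusted p between 0.543 and 0.597. Over the alternatives the Per2 value ranged from -0.68 to -0.36.

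MitoQ gave 0 calls against water in either genotype with edgeR and with DESeq2, against 0% of all genes in edgeR, and 0 clock genes had an unadjusted p under 0.05. The estimates for Dbp were -0.38 ± 0.58 in Akita and -0.53 ± 0.58 in WT mice, and those for Arntl were 0.51 ± 0.53 and 0.21 ± 0.27. Single libraries moved these values. Dbp in WT mice was 0.23, with the sign reversed, without WT water replicate 2 and -1.02 without WT MitoQ replicate 3, which is among the libraries over 40% mitochondrial counts. Over the alternatives Dbp in Akita mice ranged from -0.70 to -0.10, Arntl in Akita mice from 0.02 (without Akita MitoQ replicate 2) to 0.75 and Arntl in WT mice from 0.04 (without WT water replicate 2) to 0.34. Without the libraries over 40% mitochondrial counts 0 clock genes passed in either genotype and 0 had an unadjusted p under 0.05, with Dbp at -0.23 and Arntl at 0.70 in Akita mice. These wide errors follow the spread between mice and do not show that the groups were alike. The difference of the MitoQ effect between genotypes also gave 0 calls in edgeR and in DESeq2 (0% of all genes in edgeR) and 0 genes at an unadjusted p under 0.05, with and without those libraries. MitoGamide and MitoQ were given in different vehicles, and the dose of MitoQ is not given in the sources used here, so that they were not compared with each other.

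**Figure D5:**
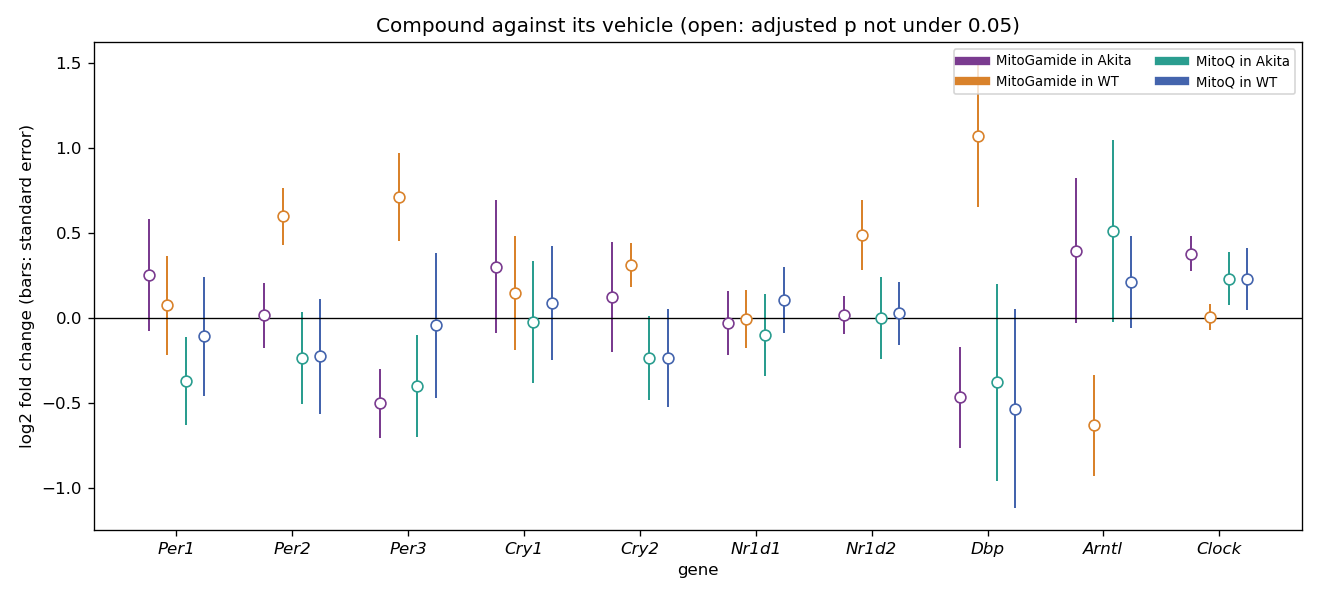
Log2 fold change of each clock gene with MitoGamide against the ethanol vehicle and with MitoQ against water, in Akita and in WT mice, with bars for the standard error (open points have an adjusted p of 0.05 or more). All 40 points are open, and Dbp with MitoGamide in WT mice is the highest at 1.07.

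The vehicles themselves were compared within each genotype. In Akita mice 1 of 10 clock genes passed, against 12.7% of all genes, and this was Nr1d2, at 56.4 to 86.5 CPM on water and 81.7 to 105.5 CPM on ethanol (0.44 ± 0.13, adjusted p = 0.0488). The call lay at the threshold and was lost when 1 of 8 single libraries was left out (without any of the 5 Akita ethanol libraries or Akita water replicates 2, 3 and 5, adjusted p up to 0.122), and without the libraries over 40% mitochondrial counts (0.31, adjusted p = 0.208). Without Akita water replicate 1, Nr1d2 stayed called and Arntl (-1.08, adjusted p = 0.014) and Dbp (0.94, adjusted p = 0.0424) also passed. The share of all genes called in that fit is not given here. In WT mice 0 passed edgeR's test, against 0% of all genes. There 1 had an unadjusted p under 0.05, against 27.4% of all genes, and DESeq2 called 1, against 4.01% of all genes. This was Clock, which measured 60.0, 48.8, 48.8, 48.8 and 82.6 CPM on water and 76.7 to 91.9 CPM on ethanol (0.56 ± 0.16, adjusted p = 0.145, and 0.0257 to 0.196 in the alternative fits). Without WT water replicate 5, Clock (0.73, adjusted p = 0.0157) and Per3 (-0.99, adjusted p = 0.0332) passed, and the share of all genes called in that fit is again not given. The share of counts on ribosomal protein genes was 0.870% to 0.985% on ethanol and 0.278% to 0.976% on water in Akita mice, beside the values of WT mice given above. In Akita mice the summed distal convoluted tubule markers did not overlap (777.3 to 904.8 CPM on ethanol and 970.6 to 1784 CPM on water), with Slc12a3 lower on ethanol (-0.70 ± 0.19) and Pvalb higher (0.79 ± 0.19), and Nphs1 was lower (-0.42 ± 0.11). None of these 3 was called without the libraries over 40% mitochondrial counts. The part of these measures in the clock gene values was not tested.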

How the data were processed

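Kidney cortex RNA of 40 mice was sequenced after depletion of ribosomal RNA. The authors assigned reads to transcripts with kallisto 0.46.1 and summed them per gene. The deposited values were estimated counts given as whole numbers, without scaling, filtering or pooling, and were used as deposited. Gene names came from the table, positions from GENCODE on GRCm38 and promoters from RefSeq.

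For each comparison, edgeR 4.0.16 in R 4.3.3 was run on the libraries compared (TMM scaling, quasi-likelihood test, genes averaging 10 counts or more, Benjamini-Hochberg adjusted p under 0.05). The comparison over all 40 libraries had the treatment as a covariate, and differences between effects were interaction terms. CPM and correlations (prior count 2) were computed from TMM-scaled counts. Correlations and orders of levels were tested by permutation with numpy 2.4.6, with ranks from scipy 1.17.1. The fits were tested on simulated counts. No 2 libraries were identical.

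Alternatives were DESeq2 1.42.0, RLE scaling, a filter that was dropped or asked for 10 counts per library, a replicate block, all 40 libraries in 1 fit and each library left out. Leaving out 3 libraries with over 40% mitochondrial counts was added after the data were examined. All 10 clock genes were named. From the other lists, up to 6 genes past the threshold were named per comparison, by smallest p, and 5 genes most like Arntl and Dbp. The genes and lists were chosen with earlier results of these data known. The Ins2 mutation itself cannot be seen in gene counts. Some genes of the marker lists are not reported here.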

Additional observations from a re-analysis of the deposited data

Results flagged for a closer look

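In 7 of the 80 sets of 5 libraries (10 clock genes in 8 groups) 1 library stood apart from the other 4 by more than 0.71 of the whole range. Chance gives about 1 in 20, or 4 of 80. Their causes were not tested.

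Akita MitoGamide replicate 5 held 56.9 CPM of Cry2, against 14.4 to 20.7 CPM in the other 4 libraries, and 58.5 CPM of Nr1d1, against 32.5 to 39.8 CPM. The same library had the most Per1 of all 40 (106.2 CPM). Its summed level of glucocorticoid-responsive genes was 792 CPM, against 235.7 to 344.3 CPM in the other 4, and that of immediate early genes was 122 CPM, against 39.7 to 48.5 CPM. Akita ethanol replicate 3 held 48.7 CPM of Per2, against 24.1 to 30.4 CPM in its group, and 436.6 CPM of glucocorticoid-responsive genes, against 194.0 to 283.0 CPM. Each of these 2 libraries was also the highest of its group in the summed level of immediate early genes, temperature-linked genes, clock protein modifiers and further clock loop genes, and in the share of mitochondrial counts (35.4% against 28.0% to 30.5%, and 28.7% against 21.6% to 26.1%).

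WT water replicate 2 held 53.0 CPM of Dbp, against 9.67 to 17.8 CPM in the other 4 libraries. WT ethanol replicate 1 held 32.6 CPM of Nr1d2, against 63.1 to 75.4 CPM, together with the least Dbp and the most Arntl of all 40 libraries. Akita MitoGamide replicate 4 held 66.1 CPM of Nr1d2, against 93.9 to 100.8 CPM. WT MitoGamide replicate 5 held 20.04 CPM of Per2, against 27.3 to 30.01 CPM.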

How the results depend on the processing

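Between Akita and WT mice on ethanol 6 clock genes were called, 7 with DESeq2 (17.6% of all genes), 8 without a filter (6.95%), 7 with at least 10 counts in every library (19.0%), 7 with the replicate block (14.5%; Per1 added, adjusted p = 0.00651) and 3 with all 40 libraries in 1 fit (4.75%), where calls over all genes fell from 2910 to 844. Leaving out 1 library gave 6 to 7 here, 6 to 8 of 10 over all treatments (main count 6), 0 to 3 with MitoGamide (main count 0), 0 to 3 for ethanol against water in Akita mice (main count 1), 0 to 2 for the same in WT mice (main count 0), and 0 to 0 in the other 9 comparisons. The shares of all genes called in the fits that left out 1 library are not given here. With MitoGamide, Akita against WT mice gave 3 calls with DESeq2 (18.5% of all genes), 2 without a filter (5.59%), 3 with the replicate block (Arntl, adjusted p = 0.0203, Dbp, 0.00221, and Cry1, 0.0329, against 13.7%) and 1 with all 40 libraries in 1 fit (11.3%). MitoGamide against vehicle in Akita mice gave 1 with DESeq2 (6.27% of all genes). Ethanol against water in Akita mice gave 0 without a filter (3.8%) and 0 with at least 10 counts in every library (14.2%). It also gave 0 with the replicate block (0%) and 0 with all 40 libraries in 1 fit (14.7%). Without the 3 libraries over 40% mitochondrial counts it gave 0 (0.00551%). In WT mice ethanol against water gave 1 with DESeq2 (4.01%) and 1 with all 40 libraries in 1 fit (8.82%). The causes were not tested. Pairs that varied together numbered 26, 19 with CPM by library total, 22 without the 3 libraries over 40% mitochondrial counts, and 15 in the ethanol arm and 18 in the water arm alone, which have fewer libraries. Whether the replicate numbers pair the mice is not given in the sources used here. In no comparison of 2 groups did all 5 pairs correlate above 0.1 across genes. However, 3 of 5 did for Akita against WT mice with water and for MitoQ against water in Akita mice (highest r = 0.655). A link between mice of the same replicate number is thus not settled. No called gene changed its sign in any alternative. Cry1 rested on as few as 9 counts per library, and small changes of it may have been missed. The parts of depth and of the spread between mice in this were not tested.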

Other observations

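On MitoGamide, where no clock gene of the 10 passed edgeR's quasi-likelihood test after adjustment and 4 (Per1, Cry1, Cry2 and Dbp) had an unadjusted p under 0.05 (31.1% of all genes), 5 of the 14 further genes of the loop were higher in Akita than in WT mice and 0 were lower, where 14.3% of all genes were called in either direction. In the same comparison the principal cell markers Aqp2 (1.61 ± 0.23) and Aqp3 (0.65 ± 0.13) and 2 of 2 podocyte markers, among them Nphs1 (0.76 ± 0.21), were higher. Likewise 1 of 3 endothelial and 1 of 2 liver markers were higher. The 1 immune marker tested (-0.58) and 2 of 4 proximal tubule markers, Lrp2 (-0.57 ± 0.14) and Slc34a1 (-0.45 ± 0.14), were lower. Mitochondrial counts took 24.6% to 27.8% in WT and 28.0% to 35.4% in Akita libraries, and the part of these in the loop genes was not tested. Beside Bhlhe41 the loop genes called higher were Ciart (log2 fold change 1.83 ± 0.36, adjusted p = 0.00738), Nampt (0.63 ± 0.15, adjusted p = 0.0186), Usp2 (0.50 ± 0.15, adjusted p = 0.0428) and the mitosis kinase gene Wee1 (0.57 ± 0.17, adjusted p = 0.0436). Cirbp (1.34 ± 0.31, adjusted p = 0.017) and Rbm3 (0.76 ± 0.13, adjusted p = 0.00381) were higher there too. Sgk1, a kinase gene of sodium handling that answers to glucocorticoids, was higher in Akita mice with water (1.51 ± 0.23, adjusted p = 0.015, but 0.0737 without the libraries over 40% mitochondrial counts), with MitoGamide (1.05 ± 0.15, adjusted p = 0.00141) and with MitoQ (1.51 ± 0.17, adjusted p = 0.00183), but on ethanol its estimate of 0.42 ± 0.26 did not pass (adjusted p = 0.294). The difference of its Akita effect between ethanol and water was -1.08 ± 0.38 (adjusted p = 1) and that between MitoGamide and ethanol 0.62 ± 0.33 (adjusted p = 0.616), so that neither is shown. Between the vehicles in Akita mice Arntl2, a paralogue of Arntl, was lower on ethanol (-1.03 ± 0.24, adjusted p = 0.0315), a call lost without the libraries over 40% mitochondrial counts (-0.75 ± 0.24, adjusted p = 0.148).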
